A study of Mus musculus with 6 samples.

Results

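The immediate early genes of neuronal activity were followed in cultured cortical neurons of WT and Fmr1-KO mice through 10 members: Fos, Fosb, Junb, Egr1, Egr2, Egr3, Arc, Npas4, Nr4a1 and Ier2. They were chosen by name as known members of the family, with earlier results of these data in view, and no measured value enters the rule. All 10 were among the 16976 genes with enough counts to be tested, in a table of 55367 rows of which 31650 held a count. Cerebral cortex of C57BL/6J pups at postnatal day 1 (P1) had been dissociated with papain. The cells grew for 2 days on laminin and poly-L-lysine in B27 Plus Neurobasal medium, and RNA was made from these cultures. Per the study's methods, ACSA2+ astrocytes and myelin had been taken out with microbeads before plating. The WT group and the Fmr1-KO group had 3 libraries each, without any other allele or agent, and no stimulus of the neurons was named; their activity was not measured. Fmr1-KO mice are without FMRP, an RNA-binding protein whose absence causes fragile X syndrome, in all of their cells. By the study's figure legend, the 3 samples of a genotype were obtained separately from one another. Whether that means separate litters, animals or cultures is not stated there, and the labels name none of these behind a library. P values therefore rest on the spread between these samples, and how much of that spread is technical cannot be told. The test also shares information on spread between genes, so a P value does not reflect a gene's own replicates alone.

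Immediate early genes are the first to be transcribed when a neuron fires, from factors already present in the cell, without new protein synthesis. Calcium that enters through NMDA receptors and L-type channels activates kinases that phosphorylate CREB and the partners of SRF, and these factors switch the genes on within minutes. Most of the products are transcription factors that turn on a later set of genes for growth factors, neuropeptides and synaptic proteins, and their own mRNAs are short-lived. Serum, growth factors and handling of cells induce many of the same genes, in glia as well as in neurons.

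Promoter sequences are shown for 3 members at lower levels in Fmr1-KO cultures (Egr2, Nr4a1 and Junb) and for Fos, which was not called. Each is the RefSeq window on GRCm38.p6 from 250 bases before to 50 bases after the start site, 5′ to 3′ on the gene's strand. Capitals mark the CRE half-site TGACG or its reverse complement CGTCA, the CArG box bound by SRF, the TATA box TATAAA, and the EGR site GCGGGGGCG or GCGTGGGCG on either strand. The windows are chr10:67537619-67537918 (plus strand) for Egr2, 1 of 5 that the table holds for this gene, chr15:101266596-101266895 (plus strand) for Nr4a1, chr8:84978699-84978998 (minus strand) for Junb and chr12:85473640-85473939 (plus strand) for Fos.
Egr2: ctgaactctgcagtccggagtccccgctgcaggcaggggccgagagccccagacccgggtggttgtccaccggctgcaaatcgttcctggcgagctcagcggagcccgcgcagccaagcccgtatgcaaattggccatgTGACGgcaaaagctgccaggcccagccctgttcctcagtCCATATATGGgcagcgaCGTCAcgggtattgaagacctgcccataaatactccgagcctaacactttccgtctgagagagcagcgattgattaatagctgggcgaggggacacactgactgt
Nr4a1: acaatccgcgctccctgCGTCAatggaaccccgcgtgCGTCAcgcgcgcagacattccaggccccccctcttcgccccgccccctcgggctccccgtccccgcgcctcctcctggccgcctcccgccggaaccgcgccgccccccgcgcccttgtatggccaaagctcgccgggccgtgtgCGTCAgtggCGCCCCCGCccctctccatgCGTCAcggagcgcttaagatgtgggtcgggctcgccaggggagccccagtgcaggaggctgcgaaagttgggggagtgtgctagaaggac
Junb: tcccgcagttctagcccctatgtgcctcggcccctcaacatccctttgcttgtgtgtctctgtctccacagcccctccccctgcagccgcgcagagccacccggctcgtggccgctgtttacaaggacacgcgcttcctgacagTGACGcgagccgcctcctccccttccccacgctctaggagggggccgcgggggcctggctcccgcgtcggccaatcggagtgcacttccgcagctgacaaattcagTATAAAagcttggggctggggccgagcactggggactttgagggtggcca
Fos: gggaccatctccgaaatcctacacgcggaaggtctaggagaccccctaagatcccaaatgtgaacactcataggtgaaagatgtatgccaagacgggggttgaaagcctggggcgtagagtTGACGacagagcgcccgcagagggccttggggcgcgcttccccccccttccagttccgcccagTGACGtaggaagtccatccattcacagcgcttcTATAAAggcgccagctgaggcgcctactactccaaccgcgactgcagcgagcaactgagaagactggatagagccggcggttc

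A single window per gene was searched for 6 members (Fos, Fosb, Junb, Egr2, Npas4 and Nr4a1), and none was used for Egr1, Egr3, Arc or Ier2. All 6 windows had a CRE half-site, the core of the element that CREB binds. Over all genes, 20.8% of the 32851 windows of the same length had one. Nr4a1 had 4 half-sites, starting at -233, -213, -69 and -40 from the start site. Egr2 had 2 at -111 and -55, Fos had 2 at -129 and -66, and Junb had 1 at -106. The full CRE TGACGTCA, which contains the half-site, was in 0 of the 6 windows and in 1.79% of all windows. Within the windows, a CArG box was found only in Egr2 among the 6, at -72, and in 1.63% of all windows. Sequence further upstream was not searched, so a CArG box or other site there, in Fos or any other member, would be missed. For Npas4, Junb and Fosb the start used lay 345, 30 and 6 bases from the principal start of the gene. Positions in these windows would shift by as much if counted from that start. The TATA box was in Fos, at -33, and in Junb, where its first base lies on the RefSeq start itself; 13.6% of all windows had one. An EGR site, to which the Egr proteins bind, was in Nr4a1 at -60 and in Fosb at -50, and in 3.47% of all windows. The AP-1 site TGACTCA (5.20% of all windows), the E-box CACGTG (7.15%) and the NR4A site AAAGGTCA (1.51%) were in 0 of the 6. Half-sites were thus present in windows of members that were called lower and of members that were not called. The letters did not separate these 2 sets, and the members called higher, Egr1 and Arc, had no window here.

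Levels are given as CPM, counts brought to a common library size after scaling by the trimmed mean of M-values (TMM). Total counts ran from 30348556 to 35126207 per library, the highest 1.16 times the lowest. The disrupted gene itself, Fmr1, was counted 4113, 3710 and 3656 times in WT and 1761, 1879 and 1972 times in Fmr1-KO. Every Fmr1-KO library was below every WT library, and the mRNA was reduced but still present. The log2 fold change was -0.98 (SE 0.04; adjusted P = 2.25e-13). Unless another setting is named, this and every other adjusted P comes from the quasi-likelihood test of edgeR, adjusted by Benjamini-Hochberg over all tested genes. Xist is the RNA of the inactive X chromosome in female cells. It was at 305.5 ± 7.34 CPM in WT and 915.7 ± 96.4 CPM in Fmr1-KO (SD, n = 3). Of 4 Y-linked genes 3 were called lower, beside 21.9% of all tested genes, and Uty was not called. The labels do not give the sex of the pups. The part of these sex-linked differences in those below was not tested.

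The members did not move as a block. Egr3, Egr2, Junb and Nr4a1 were at lower levels in Fmr1-KO cultures, and Egr1 and Arc were at higher levels. Fos, Fosb, Npas4 and Ier2 were not called. Across all tested genes 21.9% were called lower and 20.7% higher, and the 4 and 2 of 10 members are to be read against those shares. The 3 Fmr1-KO values were all under the 3 WT values for 4 members and all over them for 2, which was so for 26.3% and 25.4% of all tested genes. The median log2 fold change of the 10 was -0.29, beside 0.01 over all tested genes, and the median size of the change, whatever its sign, was 0.38 beside 0.15. Egr3 and Egr2 were the 2 members that differed by more than 1.5-fold.

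**Figure D1:**
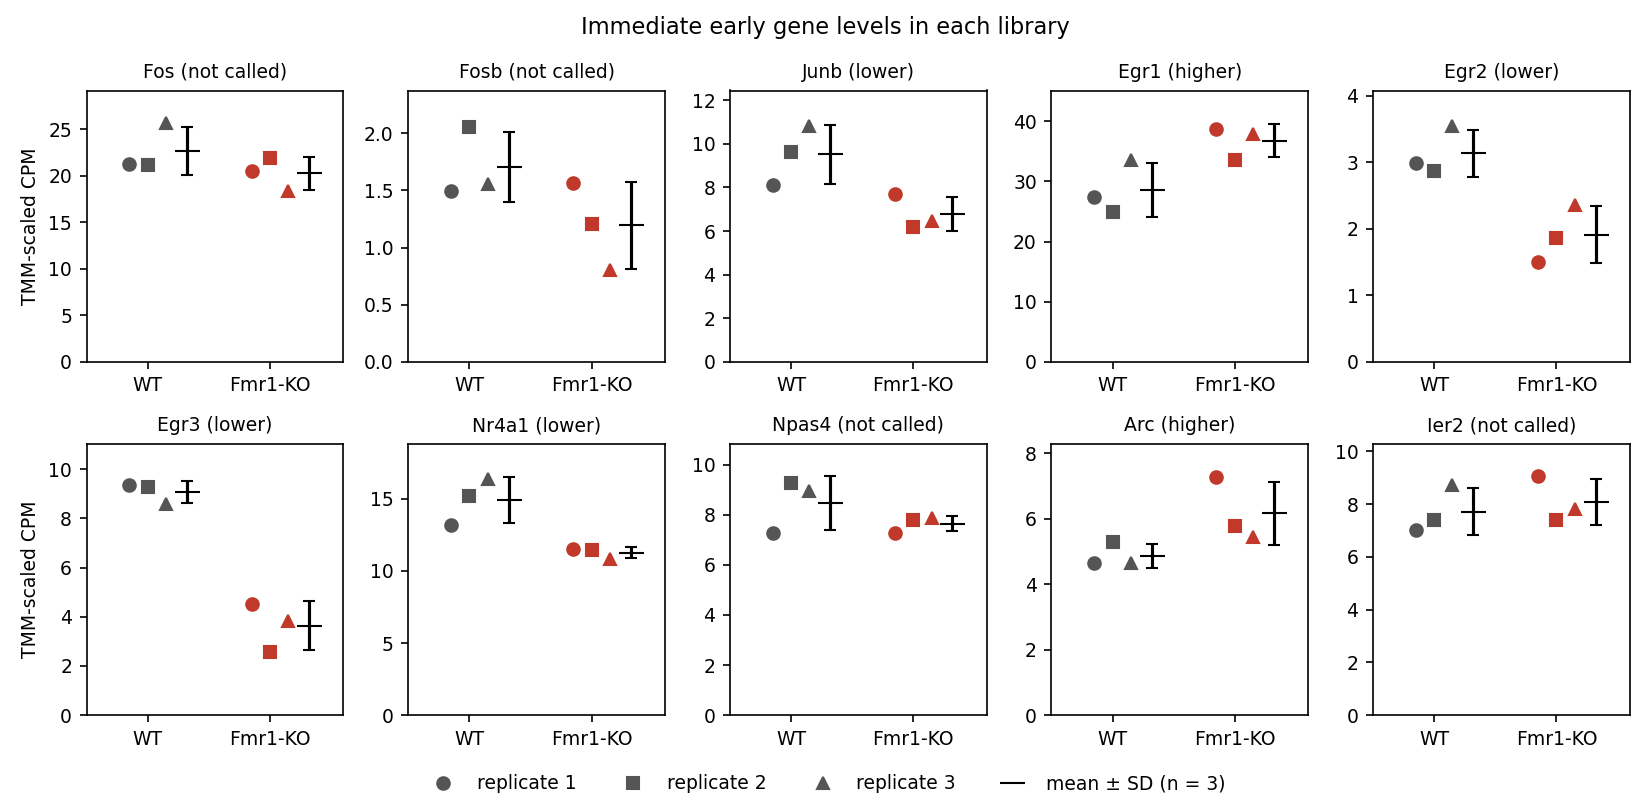
Level of each member in every library, as TMM-scaled CPM on an axis from 0, with WT in grey and Fmr1-KO in red; the marker shape gives the replicate and the black bar the mean ± SD (n = 3). Egr3, Egr2, Junb and Nr4a1 have all Fmr1-KO points below the WT points, Egr1 and Arc have them above, and the other 4 overlap.

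The Egr genes encode zinc finger factors that bind a shared GC-rich site, and these near relatives differed in opposite directions. Egr3 had the largest difference of the 10. Egr3, needed for muscle spindle development and for long-term memory, lies on chromosome 14 (GRCm38 70077203 to 70082614, plus strand). Its level was 9.35, 9.29 and 8.57 CPM in the WT libraries and 4.52, 2.58 and 3.82 CPM in the Fmr1-KO libraries. The highest Fmr1-KO library was well under the lowest WT library. Means were 9.07 ± 0.433 CPM in WT and 3.64 ± 0.983 CPM in Fmr1-KO (SD, n = 3), a log2 fold change of -1.31 (SE 0.13; adjusted P = 3.74e-08), or a change of -59.6%. It rests on 286 to 325 counts per WT library and 79 to 147 per Fmr1-KO library, and no setting tried ended the call. In this bulk RNA, fewer cells that express a gene and less of its RNA per cell cannot be told apart, here and for every member below.

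Egr2 (Krox20), known from hindbrain patterning and from myelination by Schwann cells, lies on chromosome 10 (67535475 to 67542188, plus strand), and its promoter with a CArG box is shown above. It was scarce, with 95 to 118 counts per WT library and 49 to 82 per Fmr1-KO library. Levels were 2.99, 2.87 and 3.54 CPM in WT and 1.51, 1.86 and 2.36 CPM in Fmr1-KO. Again the genotypes did not overlap, although the third Fmr1-KO library came closer to WT than the others. The log2 fold change was -0.71 (SE 0.16; adjusted P = 0.00118), from 3.13 ± 0.353 to 1.91 ± 0.427 CPM, a change of -38.8%.

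The remaining member of the family went the other way. Egr1 (Zif268), a factor long used as a marker of synaptic plasticity, lies on chromosome 18 (34859823 to 34864984, plus strand) and had the most counts of the 10. It was at 27.4, 24.9 and 33.6 CPM in WT and at 38.7, 33.6 and 38.0 CPM in Fmr1-KO. The groups were separated only narrowly, since WT replicate 3 and Fmr1-KO replicate 2 rounded to the same value. Egr1 rose from 28.6 ± 4.47 to 36.8 ± 2.76 CPM, a log2 fold change of 0.36 (SE 0.08; adjusted P = 0.000642) or 28.6%. Without WT replicate 3 the log2 fold change was 0.49 and without WT replicate 2 it was 0.27. In DESeq2 Egr1 was still called, but at a much larger adjusted P of 0.0345 (log2 fold change 0.36). Against a minimum fold change of 1.2, in place of no change, it was not called (adjusted P = 0.193).

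Because both genes are read in the same library, their ratio does not depend on scaling between libraries. There were 2.93, 2.68 and 3.92 counts of Egr1 for each count of Egr3 in the WT libraries, and 8.56, 13.0 and 9.93 in the Fmr1-KO libraries. The ratio was thus 3.30 times as high in Fmr1-KO (geometric means 3.13 and 10.3), and between 2.94 and 3.69 times when any 1 library was left out. Egr1 to Egr2 moved likewise, from 9.14, 8.67 and 9.50 to 25.7, 18.1 and 16.1 counts, which was 2.15-fold. Within the pair that fell, Egr2 to Egr3 was 0.320, 0.309 and 0.413 in WT and 0.333, 0.722 and 0.617 in Fmr1-KO, so that ratio overlapped between genotypes. These ratios were picked after the levels had been seen and are descriptions without a test.

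**Figure D2:**
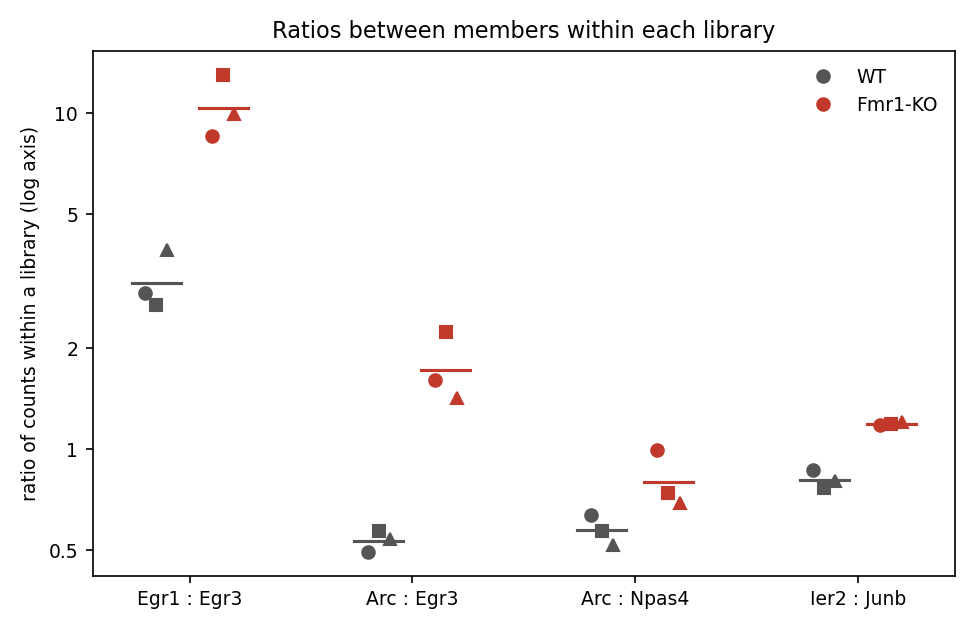
Ratio of the counts of 2 members within each library, on a log axis, with WT in grey, Fmr1-KO in red, circles, squares and triangles for replicates 1, 2 and 3, and a line at the geometric mean. Egr1 to Egr3 and Arc to Egr3 are 3.30 and 3.22 times as high in Fmr1-KO, Arc to Npas4 and Ier2 to Junb 1.39 and 1.47 times. None of these 4 ratios overlaps, but they were picked after the levels had been seen. Of the ratios not drawn, Egr2 to Egr3 and Fos to Fosb overlap and Egr1 to Egr2 does not.

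Among the AP-1 genes, whose Fos and Jun proteins pair to bind DNA, Junb fell and the Fos genes were not called. Junb, a Jun protein that restrains proliferation, lies on chromosome 8 (84974484 to 84978718, minus strand), where its exons overlap those of Prdx2 on the other strand; counting was strand-specific. It was at 8.11, 9.62 and 10.8 CPM in WT and at 7.69, 6.21 and 6.47 CPM in Fmr1-KO. The first Fmr1-KO library was just under the first WT library, and the other 2 were further below. From 9.52 ± 1.35 to 6.79 ± 0.791 CPM the log2 fold change was -0.49 (SE 0.11; adjusted P = 0.000809), a change of -28.6%. It stayed called whichever library was left out, between -0.59 and -0.38.

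Fos, the partner that gave the family its name and the most used marker of recently active neurons, lies on chromosome 12 (85473890 to 85477273, plus strand). Its level was 21.2, 21.2 and 25.7 CPM in WT and 20.5, 21.95 and 18.3 CPM in Fmr1-KO. These values overlapped, with Fmr1-KO replicate 2 above WT replicates 1 and 2. The log2 fold change was -0.17 (SE 0.08; adjusted P = 0.0852), from 22.7 ± 2.59 to 20.3 ± 1.82 CPM. The call turned on single libraries: it was -0.21 without WT replicate 2 (adjusted P = 0.0369) and -0.23 without Fmr1-KO replicate 2 (adjusted P = 0.0352), but -0.07 without WT replicate 3, and adjusted P ran from 0.0350 to 1.00 over all settings. Fos, alone among the members, was also named on the study's list of targets of nonsense-mediated decay in N2A neuroblastoma cells.

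Fosb, whose truncated form accumulates with repeated stimulation, lies on chromosome 7 (19302696 to 19310051, minus strand) and was the scarcest member, with 28 to 68 counts per library. It was at 1.496, 2.06 and 1.56 CPM in WT and at 1.57, 1.21 and 0.805 CPM in Fmr1-KO. The first Fmr1-KO library stood at the level of WT, and the other 2 were below it. The log2 fold change of -0.52 was larger than that of Junb but had an SE of 0.22, and it was not called (adjusted P = 0.0624). Without Fmr1-KO replicate 1 it was -0.77 (adjusted P = 0.0156), and without Fmr1-KO replicate 3 it was -0.29 (adjusted P = 0.322). Of the other AP-1 genes, Jun was higher in Fmr1-KO (78.2 to 96.1 CPM, log2 fold change 0.30, adjusted P = 1.43e-05) and so was Jund (58.0 to 66.2 CPM, 0.19, adjusted P = 0.0291), the latter with overlapping libraries. The Jun family therefore held 1 gene that fell and 2 that rose.

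Nr4a1 (Nur77), an orphan nuclear receptor that acts without a known natural ligand, lies on chromosome 15 (101254269 to 101274795, plus strand). It was at 13.2, 15.2 and 16.4 CPM in WT and at 11.5, 11.4 and 10.8 CPM in Fmr1-KO. The Fmr1-KO values were nearly equal to each other and all under WT. Nr4a1 fell from 14.9 ± 1.61 to 11.2 ± 0.383 CPM, a log2 fold change of -0.41 (SE 0.08; adjusted P = 0.000269) or -24.5%. Leaving out any 1 library kept it between -0.49 and -0.33, but against a minimum fold change of 1.2 it was not called (adjusted P = 0.0825). The 2 other receptors of this family parted as the Egr genes did: Nr4a2 went from 8.87 to 4.42 CPM (log2 fold change -1.004, SE 0.09, adjusted P = 1.93e-08), and Nr4a3 from 44.7 to 53.0 CPM (0.25, adjusted P = 0.000183).

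Npas4, a bHLH-PAS factor that is induced by calcium in neurons and shapes inhibitory synapses, lies on chromosome 19 (4984355 to 4990316, minus strand). Its level was 7.25, 9.26 and 8.93 CPM in WT and 7.29, 7.77 and 7.88 CPM in Fmr1-KO. The 3 Fmr1-KO libraries fell inside the WT range. The log2 fold change was -0.15 (SE 0.09; adjusted P = 0.228), from 8.48 ± 1.08 to 7.65 ± 0.314 CPM. Without WT replicate 1, the lowest of its group, it was -0.25 and called (adjusted P = 0.0429). Over all settings its adjusted P ran from 0.0429 to 1.00. Ier2, a small nuclear protein of the growth factor response, lies on chromosome 8 (84661331 to 84662852, minus strand). It was at 7.02, 7.38 and 8.72 CPM in WT and at 9.07, 7.38 and 7.82 CPM in Fmr1-KO, overlapping throughout. Its difference was 0.07 on the log2 scale (SE 0.10; adjusted P = 0.600), and the sign turned to -0.02 without Fmr1-KO replicate 1. Ier2 to Junb, both quick responses to growth factors, was 0.865, 0.767 and 0.806 in WT and 1.18, 1.19 and 1.21 in Fmr1-KO, a 1.47-fold difference between 2 tight sets of ratios.

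Arc is the effector among the members: its protein sits at synapses, where it drives removal of AMPA receptors, and its mRNA is a known substrate of nonsense-mediated decay because of introns after the stop codon. It lies on chromosome 15 (74669083 to 74672570, minus strand). Levels were 4.63, 5.29 and 4.64 CPM in WT and 7.26, 5.78 and 5.43 CPM in Fmr1-KO. All Fmr1-KO libraries were above WT, the third by little and the first by much. The log2 fold change was 0.34 (SE 0.12; adjusted P = 0.0209), from 4.86 ± 0.378 to 6.16 ± 0.969 CPM or 26.7%. It was the least firm of the 6 calls. Adjusted P was 0.175 without Fmr1-KO replicate 1 (log2 fold change 0.21), 0.0801 without WT replicate 1, 0.0655 without WT replicate 3 and 0.0665 in DESeq2, within a range from 0.00776 to 0.446 over all settings.

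Arc and Npas4, both induced by synaptic activity, shifted against each other. Counts of Arc per count of Npas4 were 0.639, 0.572 and 0.520 in WT and 0.996, 0.744 and 0.690 in Fmr1-KO. Every Fmr1-KO ratio was above every WT ratio, by 1.39-fold in geometric mean. Against Egr3 the shift was 3.22-fold, from 0.495, 0.570 and 0.542 to 1.61, 2.24 and 1.42. Both pairs were chosen after the values had been seen, and 7 such ratios were computed. Among the 7, Fos to Fosb overlapped between genotypes, at 14.2, 10.3 and 16.5 in WT and 13.1, 18.2 and 22.8 in Fmr1-KO.

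**Figure D3:**
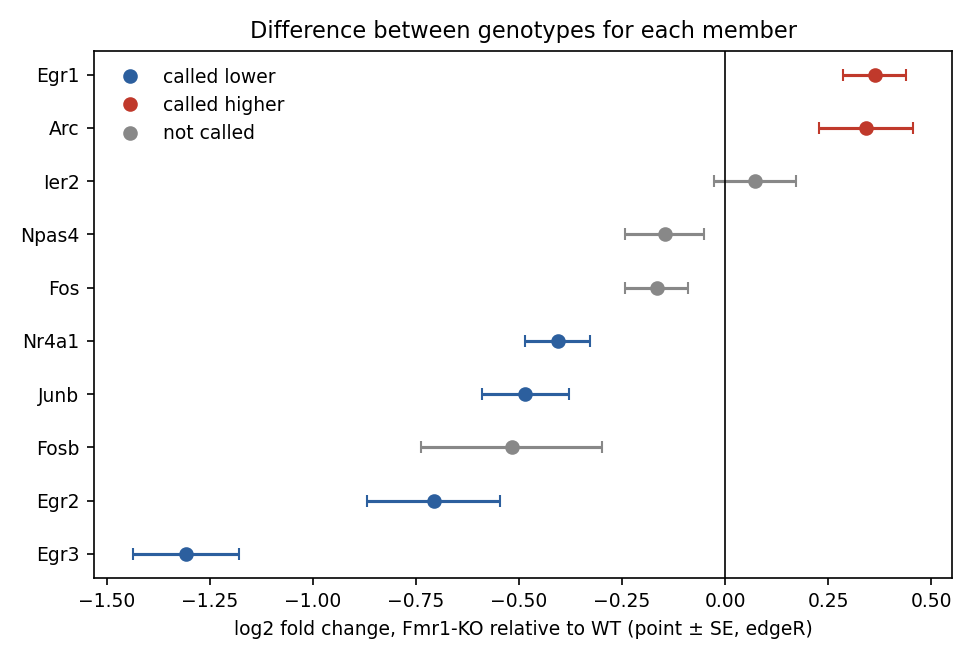
Log2 fold change of each member in Fmr1-KO relative to WT with its SE from edgeR, sorted by value; blue is called lower, red called higher and grey not called at an adjusted P of 0.05. Egr3 stands at -1.31, and Fosb has a larger change than Junb or Nr4a1 but the widest error.

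Compared between genes per kilobase of exon, the order of levels shifted with genotype. In WT it ran from Fos at 9.65 ± 1.10 CPM per kb through Egr1 (6.38 ± 0.997), Ier2 (5.06 ± 0.589), Nr4a1 (4.25 ± 0.459), Junb (4.14 ± 0.589), Egr3 (2.06 ± 0.0983), Npas4 (2.05 ± 0.260), Arc (1.59 ± 0.124) and Egr2 (0.922 ± 0.104) to Fosb at 0.273 ± 0.0492. Neighbours whose libraries overlapped in WT were Egr1 and Ier2, Ier2 and Nr4a1, Nr4a1 and Junb, and Egr3 and Npas4. In Fmr1-KO, Fos at 8.61 ± 0.773 and Egr1 at 8.20 ± 0.615 CPM per kb overlapped at the top. Nr4a1 and Junb overlapped in Fmr1-KO too. Arc at 2.01 ± 0.317 and Npas4 at 1.85 ± 0.0759 overlapped each other, so their order is not settled. Both came before Egr3 at 0.826 ± 0.223, which had dropped to overlap with Egr2 at 0.562 ± 0.126. Egr3 stood at the 33.1 percentile of tested genes by level per kb in WT and at the 21.1 percentile in Fmr1-KO, while Egr1 stood at 55.9 and 62.4. No member was among the abundant mRNAs of these cultures, Fos reaching the 66.8 percentile in WT.

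Replicates differed more for the members than for most genes of like abundance. Because edgeR draws the spread of each gene toward that of other genes, SE and P of such members can look firmer than their own replicates. The SD of log2 CPM within a genotype was 0.174 for Egr1, above that of 99.4% of the genes within 0.5 log2 CPM of it. For Egr3 it was 0.295 (98.9%), for Fos 0.146 (97.0%), for Fosb 0.376 (94.9%) and for Junb 0.187 (94.0%), and the lowest place was that of Npas4, 0.140 (79.4%). Part of the spread ran across genes. WT replicate 3 was the highest WT library for 6 of the 10 and WT replicate 1 the lowest for 6, with median deviations from the genotype mean of 0.16 and -0.11 on the log2 scale. Fmr1-KO replicate 1 was the highest of its group for 7, with a median deviation of 0.12. Egr3 followed that, with a deviation of 0.35 in Fmr1-KO replicate 1, while Egr2 departed from it, with -0.31 in the same library.

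**Figure D4:**
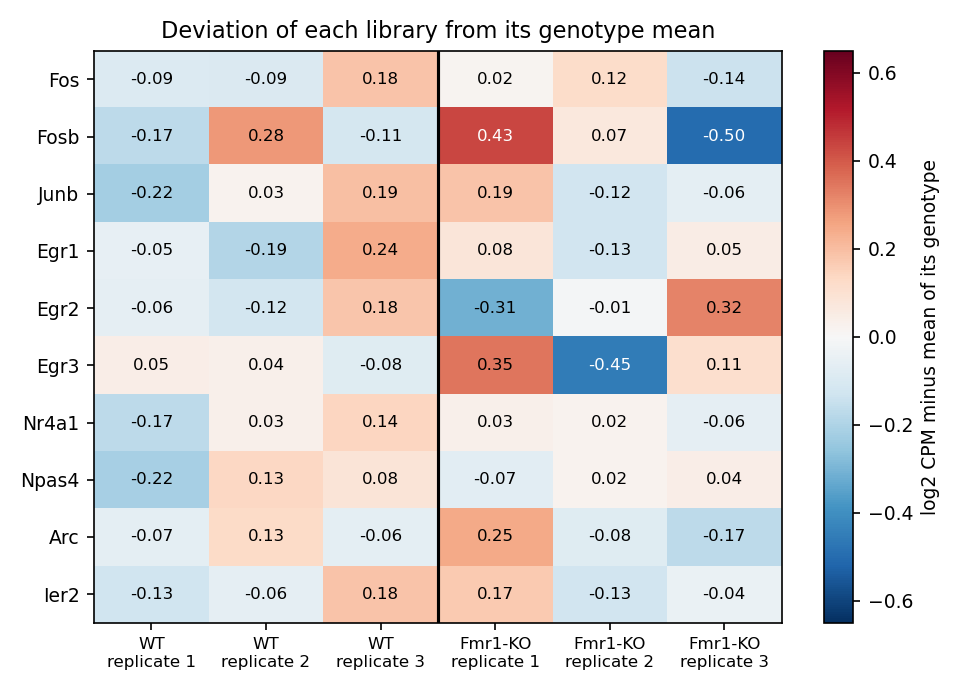
Deviation of each library from the mean of its genotype, as log2 CPM, for every member; red is above and blue below the mean, and the vertical line parts WT from Fmr1-KO. WT replicate 3 and Fmr1-KO replicate 1 are mostly red, WT replicate 1 mostly blue, and the strongest colours are those of Fosb, Egr2 and Egr3 in Fmr1-KO.

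Other primary response genes were called in both directions. Of 38 tested, 12 were called lower, 11 higher and 15 not called, with a median log2 fold change of 0.01, beside 21.9% lower and 20.7% higher over all tested genes. Egr4, the scarcest Egr gene, fell from 23, 31 and 26 counts in WT to 6, 2 and 6 in Fmr1-KO (log2 fold change -2.44, SE 0.37, adjusted P = 1.35e-05), so 3 of the 4 Egr genes were lower and Egr1 alone was higher. Also lower were the synaptic kinase Plk2 (-0.47), the scaffold gene Homer1 (-0.45) and Klf6 (-0.43), and higher were Gadd45g (0.55), the MAP kinase phosphatase Dusp1 (0.48), Klf4 (0.43) and Ier5 (0.42). Opposite directions were thus seen in the Egr, Jun, Nr4a and Klf families alike.

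Late response and other activity-regulated genes were lower more often than higher. Whether the immediate early factors regulate them in these cultures was not tested. Of 24 tested, 15 were called lower and 1 higher, with a median log2 fold change of -0.39, beside the same 21.9% and 20.7%. The neuropeptide gene Sst went from 43.6 ± 3.04 to 7.53 ± 0.611 CPM (log2 fold change -2.53, SE 0.07, adjusted P = 2.32e-16). Inhba, which encodes a subunit of activin, fell by 1.77 on the log2 scale, the secreted Vgf by 1.70 and the granin Scg2 by 1.36. Bdnf, the neurotrophin regulated by activity, was at 5.27, 5.08 and 5.15 CPM in WT and at 3.57, 3.76 and 4.05 CPM in Fmr1-KO. Its groups were well apart, with a log2 fold change of -0.44 (SE 0.11; adjusted P = 0.00178). Only Rgs2, a regulator of G protein signalling, was higher among the 24, by 0.17.

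Upstream of the members, channels and kinases were more often lower than higher, against 21.9% lower and 20.7% higher over all tested genes. Of 14 genes for NMDA receptor subunits and for L-type calcium channels with their auxiliary subunits 12 were called lower and 0 higher (median -0.36), led by Grin2d (-1.06), the obligate subunit Grin1 (-0.92), Grin2a (-0.81) and Grin3a (-0.74). Of 23 genes of the ERK and calcium kinase routes 13 were lower and 2 higher (median -0.13). The calcium-regulated exchange factor Rasgrf2 was at 38.3 ± 1.76 CPM in WT and 9.36 ± 0.670 CPM in Fmr1-KO, and the CREB kinase Camk4 fell by 0.66 on the log2 scale. Camkk2 and Mapk3 (ERK1) both fell by 0.45, while the kinases Rps6ka5 and Rps6ka2 were higher by 0.22 and 0.17.

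Of 18 SRF, CREB and MEF2 factors and coactivators 4 were lower and 4 higher (median 0.01), which is about the share over all tested genes in each direction, 21.9% and 20.7%. The higher count was 2 whichever library was left out and in DESeq2. Mef2c, a calcium-responsive factor of cortical neurons, went from 446.7 ± 5.39 to 121.2 ± 4.89 CPM (log2 fold change -1.88, SE 0.03, adjusted P = 1.36e-19). Mef2d (-0.25) and the CREB coactivator Crtc1 (-0.15) were also lower, and so was the scarce Mef2b (0.838 to 0.490 CPM, log2 fold change -0.77, adjusted P = 0.0260), which was named after its values had been seen. Creb1 was higher by 0.16 (adjusted P = 0.00967) with overlapping libraries, and Atf1, Crtc3 and Crebbp were higher by 0.16, 0.12 and 0.11. Srf (0.09, adjusted P = 0.150), Elk1 (0.01, adjusted P = 0.797) and Crem (0.01, adjusted P = 0.915) were not called. Of 10 partners and corepressors of the member proteins 3 were lower and 1 higher. Nab2 and Nab1, which repress Egr proteins, stood at -0.38 (adjusted P = 0.00144) and at -0.17 (adjusted P = 0.00193) on the log2 scale, and the retinoid receptor Rxrg, a partner of Nr4a1, had -0.21. Arnt was higher by 0.11, a call lost in DESeq2 and under several other settings, and Arnt2, a partner of Npas4, was at -0.01 (adjusted P = 0.785).

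**Figure D5:**
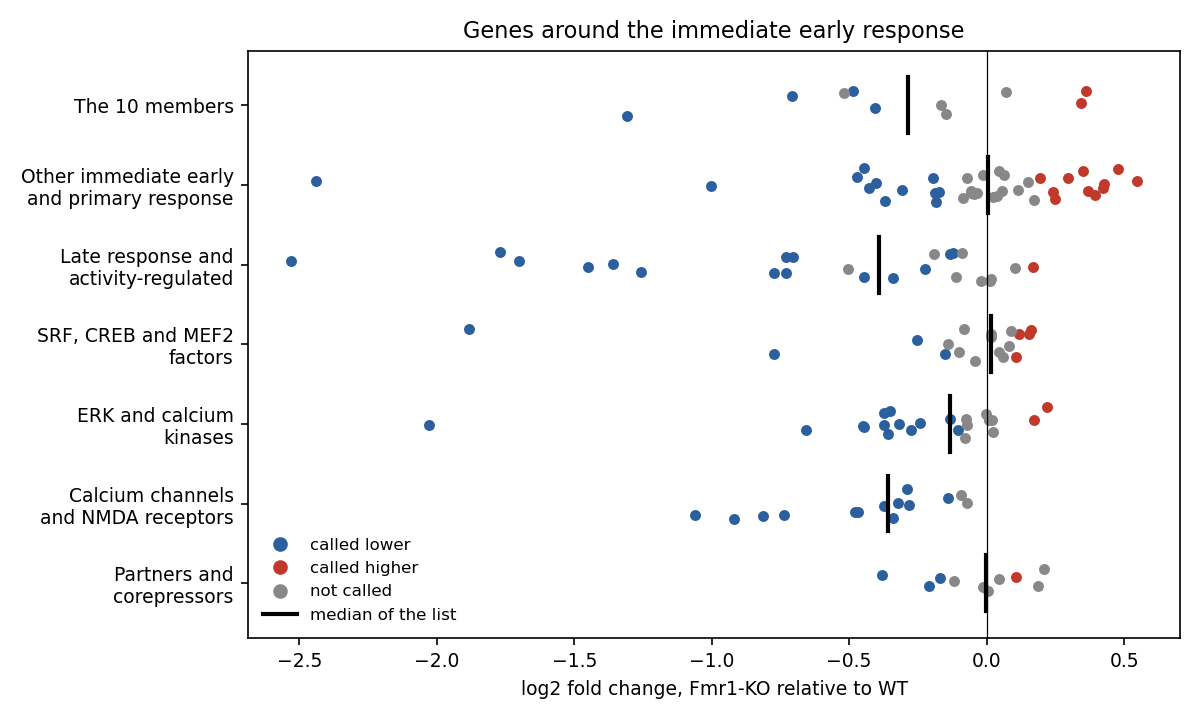
Log2 fold change in Fmr1-KO relative to WT for each tested gene of the members and of 6 related lists, with blue for called lower, red for called higher, grey for not called and a black bar at the median of the list; points are spread vertically to be seen. Late response genes and calcium channels lie mostly below 0, and the members and the other immediate early genes lie on both sides.

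Markers of several cell types were called in either direction beside these genes. Their counts are to be read against 21.9% lower and 20.7% higher over all tested genes. Of 16 neuronal markers 12 were lower and 2 higher, with a summed level of 5602 to 5741 CPM in WT and 4844 to 5077 CPM in Fmr1-KO. All 16 markers of proliferating cells were higher (766.7 to 813.0 CPM in WT, 1303 to 1347 in Fmr1-KO), as were 7 of 14 progenitor markers with 1 lower (3424 to 3449 and 3848 to 3914 CPM). All 10 oligodendrocyte markers (2346 to 2551 and 1344 to 1448 CPM) and 11 of 12 microglial markers (320.0 to 343.9 and 192.3 to 217.0 CPM) were lower. Despite the depletion step, astrocyte markers summed to 5040 to 5178 CPM in WT and 4407 to 4778 CPM in Fmr1-KO, with 6 of 10 lower and 3 higher. Excitatory markers were split, 6 of 13 lower and 5 higher (1047 to 1055 and 959.9 to 992.5 CPM), and so were GABAergic markers, 5 of 11 each way (848.1 to 877.2 and 934.4 to 1036 CPM). Of 9 tested endothelial and mural markers 3 were lower and 4 higher (276.8 to 303.7 and 431.3 to 452.0 CPM), and of 8 fibroblast markers 5 were lower and 2 higher (680.6 to 760.5 and 703.5 to 740.6 CPM). Heat shock genes, a sign of stress from dissociation, had 4 of 12 lower and 0 higher (4344 to 4552 and 4156 to 4234 CPM). The lists share genes: Pdgfra is on the oligodendrocyte and fibroblast lists, and Cspg4 on the oligodendrocyte and the endothelial and mural lists. Both were called lower and count in each list. A summed level can rest on a few abundant genes. Gfap alone was at 2649 CPM in WT and 2297 CPM in Fmr1-KO, and Acta2, a mural marker, at 176.1 and 322.0 CPM. No marker on any list was at 0 in a genotype. Their part in the differences between members was not tested.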

How the data were processed

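The authors deposited raw counts per gene from polyA RNA, without normalization. According to their methods and the labels, they trimmed reads by FastP, mapped them by STAR 2.7.6a (GRCm38.p6) and summed stranded exon reads by gene name in featureCounts (Subread 2.0.1), so isoforms are not separated. Counts were tested here with edgeR 4.0.16 (R 4.3.3): filterByExpr, TMM scaling, glmQLFit and glmQLFTest, 2-sided, genotype as the only term, Benjamini-Hochberg adjustment over all tested genes, called at an adjusted P under 0.05. SE is the size of the log2 fold change divided by the root of the F statistic. It therefore rests on a spread moderated across genes and not on that of the gene's own libraries alone. DESeq2 1.42.0 was an alternative, beside RLE, upper-quartile and total-count scaling, an unfiltered table, a higher floor (10 counts and 5 CPM on average), a minimum fold change of 1.2, the replicate block, and each library left out in turn. Replicates differed beyond counting noise (chi-square per degree of freedom 2.68 in WT, 2.88 in Fmr1-KO). The script was tested on simulated data. Gene positions and exon lengths are those of GENCODE M21 (GRCm38), older than the authors' M22 or M25; 98.6% of tested genes had a length. Promoters came from RefSeq (GRCm38.p6), with windows used for 6 of the 10 members. The members, the gene lists and the rule for named genes were chosen with earlier results of these data known. By that rule the text names all members, Fmr1, Xist, 13 related genes given by name, and up to 4 called genes in each direction per pathway list whose mean reached 5 CPM and whose genotypes did not overlap.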

Additional observations from a re-analysis of the deposited data

How the results depend on the processing

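Junb, Egr2 and Egr3 stayed called lower under every setting that tested them, with adjusted P up to 0.0480, 0.0140 and 1.11e-06. No scaling moved the median of all genes by more than 0.0278 on the log2 scale, and none changed a call of a member. With a replicate block 4 members were lower and 2 higher, as without it, and the call of Arnt was lost (0 of 10 partners higher). Replicate numbers did not pair the libraries: deviations of same-numbered libraries correlated at -0.0274, 0.0310 and -0.0162.

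Arc was not called in DESeq2 (0.34, adjusted P = 0.0665) or against a minimum fold change of 1.2 (0.34, adjusted P = 0.446), and leaving out 1 library gave 0.21 to 0.43. That minimum also ended the calls of Egr1 (0.36, adjusted P = 0.193) and Nr4a1 (-0.41, adjusted P = 0.0825). Higher members then numbered 1 in DESeq2, 0 with the minimum, and 1 to 2 without 1 library. Without a filter, Fos (-0.17, adjusted P = 0.0350) and Fosb (-0.52, adjusted P = 0.0285) were called, making 6 lower. That setting gave far smaller adjusted P at nearly the same fold changes, such as 2.39e-34 for Egr3 at -1.31. Its calls are therefore weak evidence of a difference. Without 1 library Fos ran from -0.227 to -0.0693, Fosb from -0.77 to -0.29, Npas4 from -0.250 to -0.0800 and Ier2, whose sign turned without Fmr1-KO replicate 1, from -0.0182 to 0.169. Adjusted P over all settings ran from 0.0350 to 1.00 for Fos, 0.0156 to 0.322 for Fosb, 0.00776 to 0.446 for Arc, 1.54e-10 to 0.193 for Egr1 and 9.55e-07 to 0.0825 for Nr4a1. The smallest values for Fos, Arc, Egr1 and Nr4a1 came from the unfiltered table. The stricter filter left out Fosb and Egr2, and the median of the other 8 was -0.16.

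Against the minimum fold change 1340 genes were lower and 883 higher. Lower and higher numbered 5 and 5 of the other immediate early genes, 9 and 0 of late response genes, 1 and 0 of SRF, CREB and MEF2 factors, 7 and 0 of kinases, and 0 and 0 of partners, and 6 channels were lower. In DESeq2, higher factors numbered 2 and partners 0; partners were 0 without a filter too. Without 1 library higher factors numbered 2 each time, and partners 0 to 1. The causes of these shifts were not tested. Fosb and Egr2 are limited by counts, with 28 to 68 and 49 to 118 per library.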
